A study of Mus musculus with 4 samples.

Results

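Genes of antigen presentation and of dendritic cells were followed on 4 microarrays of cultured mouse myeloid-derived suppressor cells (MDSCs). The list was set by gene name and holds 36 genes, of which 8 encode class II molecules, 4 encode regulators of class II genes, 11 belong to class I presentation, 3 to lipid presentation and endosomal processing, and 10 mark dendritic cells. Where several probe sets carried the symbol of a gene and no other, the 1 with the highest mean log2 value stood for it. In this way 33 of the 36 genes could be measured, out of 18194 genes in all. H2-DMb1, H2-T23 and Clec9a had no such probe set and are not analysed here.

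Marrow cells of C57BL/6 mice received a lentivirus and then grew for 4 days with GM-CSF and IL-6, which turn marrow cells into MDSCs. In oeLNC the virus overexpressed the long noncoding RNA lnc-C/EBPβ, which the labels call lncMDSC, and oeNC carried the control virus for overexpression. In kdLNC the virus carried an shRNA against the same RNA, and kdNC carried a control shRNA. The arrays ask which mRNAs differ when this RNA is silenced or overexpressed. All 4 cultures shared the strain, the cytokines and a lentiviral infection, and each group had 1 array of an Affymetrix mouse genome design. The sources used here do not give the number of mice behind a culture.

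Class II molecules display peptides from proteins taken up by the cell to CD4+ T cells. Their chains are made together with the invariant chain, which is cut by endosomal proteases before a peptide is loaded. Dendritic cells, B cells and activated macrophages carry class II, and MDSCs are usually described as immature cells that carry little of it. Class I molecules are found on nearly every nucleated cell and show peptides cut by the proteasome and carried into the endoplasmic reticulum. Class II promoters share an X box, bound by the RFX complex, and a Y box, bound by NF-Y, and the coactivator CIITA docks on the proteins bound there. Class I promoters hold a similar module, used by the coactivator NLRC5, beside an enhancer with a κB site and an interferon response element.

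The promoters of 5 genes are printed because they show these letters in genes that the results turn on, 3 of class II and 2 of class I. Each is the 250 bases before the annotated start (RefSeq, build GRCm38.p6), with capitals on 5 motifs searched on both strands: CCAAT (Y box), GCAAC (part of the X box), TGACG (core of the X2 box), TTTCNCTT (core of the interferon response element) and GGGGATT (first part of the κB site).
H2-Aa (chr17:34287824-34288073, strand -): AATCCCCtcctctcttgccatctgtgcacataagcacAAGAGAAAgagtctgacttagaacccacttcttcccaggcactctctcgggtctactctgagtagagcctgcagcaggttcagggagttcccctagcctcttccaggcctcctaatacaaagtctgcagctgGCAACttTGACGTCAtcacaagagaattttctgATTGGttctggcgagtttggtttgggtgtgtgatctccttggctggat
H2-Eb1 (chr17:34305617-34305866, strand +): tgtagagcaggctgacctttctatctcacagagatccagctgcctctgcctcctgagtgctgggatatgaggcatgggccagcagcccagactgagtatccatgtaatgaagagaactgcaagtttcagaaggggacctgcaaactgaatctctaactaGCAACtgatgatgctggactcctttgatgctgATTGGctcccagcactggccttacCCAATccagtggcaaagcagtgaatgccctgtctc
H2-Ob (chr17:34238655-34238904, strand +): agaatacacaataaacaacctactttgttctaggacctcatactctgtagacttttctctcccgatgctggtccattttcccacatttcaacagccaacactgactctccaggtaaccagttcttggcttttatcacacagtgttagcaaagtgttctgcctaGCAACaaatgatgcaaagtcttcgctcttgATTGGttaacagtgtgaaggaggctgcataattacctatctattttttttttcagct
H2-K1 (chr17:34000348-34000597, strand -): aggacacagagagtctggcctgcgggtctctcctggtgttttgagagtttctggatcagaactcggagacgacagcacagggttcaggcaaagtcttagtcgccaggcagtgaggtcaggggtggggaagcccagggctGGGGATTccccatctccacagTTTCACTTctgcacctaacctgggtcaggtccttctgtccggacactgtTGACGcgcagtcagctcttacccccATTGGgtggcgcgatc
H2-D1 (chr17:35262844-35263093, strand +): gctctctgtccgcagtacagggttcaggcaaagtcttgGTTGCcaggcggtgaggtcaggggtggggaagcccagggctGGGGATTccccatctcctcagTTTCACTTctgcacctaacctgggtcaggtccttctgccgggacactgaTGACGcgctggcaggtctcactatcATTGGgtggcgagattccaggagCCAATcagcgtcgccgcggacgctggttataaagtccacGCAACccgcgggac
H2-K1 has 2 annotated starts close together, and the first in the table was used. TGACG can overlap itself where it reads the same on both strands, as in H2-Aa.

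Of the 36 genes, 25 had a promoter in the RefSeq table, and the search covered 300 bases, 250 before the start and 50 after it. A GCAAC followed by a CCAAT, each on either strand, with starts 25 to 40 bases apart, stood in 4 of 6 class II promoters. Their starts were 33 bases apart in H2-Aa and H2-Oa, 32 in H2-Eb1 and 30 in H2-Ob. None of the 8 class I promoters held the pair in that order, and 1.08% of all 32851 promoters did. In the reverse order, a CCAAT followed by a GCAAC at such a spacing, the class I promoters of Tap1 and H2-D1 held it. No class II promoter did, and the share of all promoters with the reverse order was not computed. The spacing was chosen after these promoters had been seen. CCAAT alone was found in 5 of the 6 class II and 7 of the 8 class I promoters, against 37.4% of all promoters. GCAAC alone was in 5 of 6 and 4 of 8 (35.2% of all), and TGACG in 1 of 6 and 5 of 8 (20.8% of all). TTTCNCTT was in 1 of the 6 class II and 5 of the 8 class I promoters (7.66% of all). GGGGATT was in 1 of the 6 class II promoters, at the far end of H2-Aa, and in 2 of the 8 class I promoters, H2-K1 and H2-D1 (3.10% of all). These matches describe letters and do not show that a factor binds.

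Values are given as intensities, in linear units, and differences as differences of log2 values. The median log2 value of an array was 4.17 to 4.24, and the brightest probe set had 11778 to 12309. No background signal was used here, so a low value cannot be told from none, and precision is limited by the number of arrays. A gene was counted in a comparison where it lay above the 50th percentile of probe sets on at least 1 of its arrays, and 30 of the 33 measured genes did so in all 4 comparisons. The limma test of the methods needs replicates, which a single array per group does not give, so values stand without replicate error or p-value, and the 2-fold threshold of the methods was kept. lnc-C/EBPβ has no probe set under its name, so silencing and overexpression are taken from the labels. The MDSC label is that of the submitters. Of 12 listed markers of MDSCs and neutrophils 9 were measured, all above the filter on at least 1 array. The measured markers of B cells and T cells were above it too, so this does not identify the cells. Ly6g, Ly6c1 and Ly6c2 are not analysed here.

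The 7 measured class II genes were lower on both arrays with an overexpression vector than on both arrays with an shRNA vector. Some differed about as much within a pair as between the control arrays, H2-Ob with log2 differences of 0.48 in the knockdown pair and -0.47 in the overexpression pair, and H2-Ab1 with -0.39 in the overexpression pair. The other 5 lay between -0.21 and 0.21 in both pairs. The order of the arrays held for all 7, where 30.8% of 12092 genes had it. H2-Aa, the α chain of I-A, had intensities of 1246 in oeLNC, 1255 in oeNC, 2146 in kdLNC and 2051 in kdNC. H2-Ab1, the β chain of the same molecule, had 412 in oeLNC, 539.7 in oeNC, 757 in kdLNC and 686 in kdNC. For both chains the shRNA arrays were the high ones and the groups of arrays did not overlap. H2-Eb1, the β chain of I-E, had 457 in oeLNC, 529 in oeNC, 751 in kdLNC and 778 in kdNC. Cd74, the invariant chain, had 637 in oeLNC, 646 in oeNC, 1073 in kdLNC and 926 in kdNC. These genes lay between the 89.9th and the 98.5th percentile of genes on their arrays, so they were among the brighter probe sets. In RNA of a whole culture, fewer cells of a type and less RNA per cell cannot be told apart.

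The 3 measured genes for editors of class II peptides had the same order of arrays and lay between the 58.4th and the 78.9th percentile. H2-DMa, a chain of H2-M, which exchanges the invariant chain fragment for peptides, had 128 in oeLNC, 136 in oeNC, 165 in kdLNC and 186 in kdNC. H2-Oa had 87.8 in oeLNC, 82.3 in oeNC, 121 in kdLNC and 140.1 in kdNC. H2-Ob had 50.8 in oeLNC, 70.2 in oeNC, 139 in kdLNC and 99.4 in kdNC. H2-Oa and H2-Ob encode the chains of H2-O, an inhibitor of H2-M found above all in B cells. H2-Ob was the class II gene with the widest range over the arrays.

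**Figure D1:**
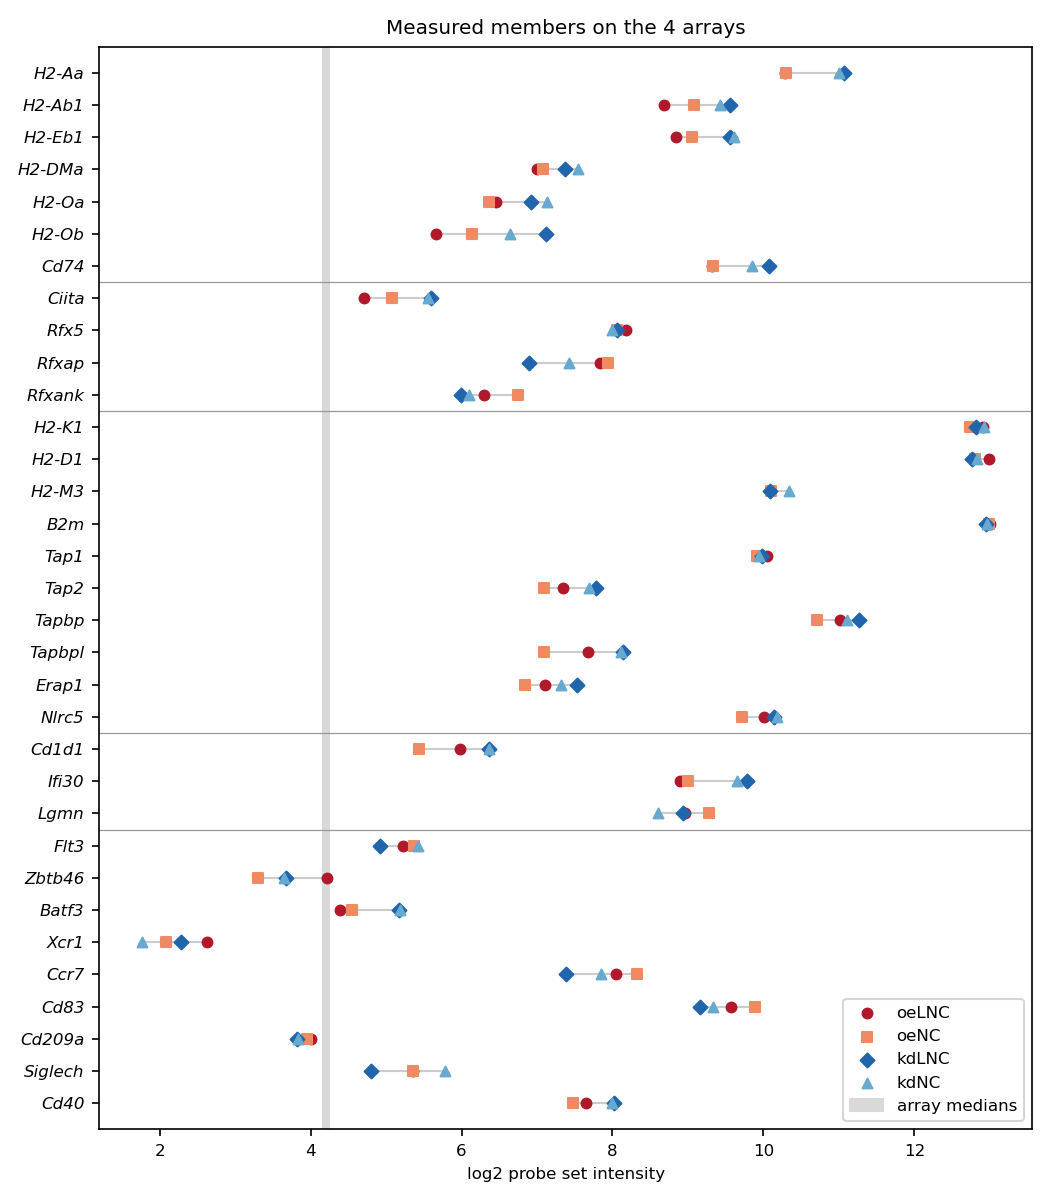
Log2 intensity of each measured gene (rows, grouped as class II molecules, class II regulators, class I genes, processing and dendritic cell genes from top to bottom) on the 4 arrays (points), with the array medians of 4.17 to 4.24 as a grey band. The 7 class II genes have both overexpression-vector points left of both shRNA-vector points, while H2-K1, H2-D1 and B2m lie at the right edge with 4 close points.

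With lnc-C/EBPβ silenced, no gene of the list differed by 2-fold from the control shRNA among the 30 above the filter, where 0.834% of 11505 genes did. Class II genes had a median log2 difference (kdLNC minus kdNC) of 0.07, and 4 of 7 were higher in kdLNC, where 40.6% of all genes were. The differences ran from -0.21 for H2-Oa to 0.48 for H2-Ob. The median over all genes above the filter was -0.05. Without probe sets open to several transcripts the class II median was -0.11, with 1 of 4 genes higher. Against the mean of both controls it was 0.31, with 7 of 7 higher and a median of -0.02 over all genes above the filter. That mean includes oeNC, so the difference between the control arrays enters these values. Against kdNC alone, H2-Aa differed by 0.07, H2-Ab1 by 0.14, Cd74 by 0.21 and H2-Eb1 by -0.05. Each was inside the SD of 0.51 to 0.59 that the 500 genes nearest in level had between the control arrays. Those arrays differ in vector, and 7.03% of genes passed 2-fold between them, so this SD does not measure the spread within the knockdown pair. Some markers of neutrophils differed far more on these 2 arrays, with -2.70 for Ltf and -1.10 for Cxcr2. Camp had intensities of 1986 in kdLNC and 5629 in kdNC, while Arg1, an enzyme of MDSCs and macrophages, had 1.73. Of the 9 measured markers of MDSCs and neutrophils 5 stayed within 1.5-fold, S100a8 at 0.10 and S100a9 at 0.05 among them. In kdLNC 4 of the 9 were higher and 5 were lower, where 58.7% of all genes were lower. Their part in the knockdown differences was not tested.

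With lnc-C/EBPβ overexpressed, again no gene of the list passed 2-fold, where 1.10% of 11869 genes did, and none passed 1.5-fold, where 9.32% did. The median of the class II genes (oeLNC minus oeNC) was -0.09, and 6 of 7 were lower in oeLNC, where 51.9% of all genes were lower. After a further quantile normalization 3 of 7 were lower, with a median of 0.03 over all genes above the filter. H2-Ob had -0.47, H2-Ab1 -0.39 and H2-Eb1 -0.21. H2-Aa, Cd74 and H2-DMa lay between -0.09 and -0.01, and H2-Oa was at 0.09. At the brightest probe sets, 4 of the 7 class II genes had a positive knockdown difference and a negative overexpression difference, where 23.8% of 11282 genes had. Of these 4, H2-Aa and Cd74 had only -0.01 and -0.02 in the overexpression pair. At the brightest probe sets 0 of the 10 class I genes had that pattern. Other class I probe sets above the filter did, with 0.35 and -0.18 for one of B2m and 0.67 and -0.19 for one of H2-D1. Further ones of H2-D1 had 0.11 and -1.05, and 0.05 and -0.25. One of H2-K1 had 0.49 and -0.24, and one of Erap1 had 0.64 and -0.05. The remaining ones above the filter did not have the pattern. The lack of it in class I thus rests on the choice of the brightest probe sets. Among the brightest probe sets of the list, H2-Ob had the widest difference of that kind in both pairs, and neither value passed the threshold.

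Between the control arrays (oeNC minus kdNC), in which vector, culture and array cannot be told apart, the class II median was -0.52, against -0.04 over all genes. All 7 were lower in oeNC, where 53.3% of all genes were, and 2 of 7 were lower by at least 1.5-fold (12.2% of all genes), H2-Oa at -0.77 and H2-Aa at -0.71. Between the lncRNA arrays (oeLNC minus kdLNC), which share no array with the control comparison and differ in vector as well as in the RNA, the median was -0.75. Again 7 of 7 were lower (49.0% of all genes), and 5 of 7 by at least 1.5-fold (12.7% of all genes). H2-Ob fell 2.73-fold in oeLNC against kdLNC, at a log2 difference of -1.45, and was the 1 gene of the list past 2-fold there, where 5.45% of 11832 genes were. H2-Ab1 had -0.88, H2-Aa -0.78, Cd74 -0.75 and H2-Eb1 -0.72. Over the whole list, 7 of 30 genes were lower by at least 1.5-fold in oeNC than in kdNC and 2 were higher (9.22% of all genes). In oeLNC against kdLNC 8 of 30 were lower by that much and 2 were higher (8.40% of all genes). Lower in both of these comparisons were 7 of 7 class II genes and 6 of 10 class I genes, where 35.8% of genes were.

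Of the regulators of class II genes, the transactivator had the array order of the class II genes and the RFX subunits did not. Ciita, the class II transactivator, had 26.2 in oeLNC, 33.8 in oeNC, 48.3 in kdLNC and 47.0 in kdNC, so both overexpression-vector arrays were the low ones. Its difference was -0.37 in the overexpression pair and 0.04 in the knockdown pair. A second probe set of Ciita gave -1.02 and 0.25 for the same pairs, at intensities of 14.4 in oeLNC, 29.2 in oeNC, 34.2 in kdLNC and 28.7 in kdNC. The probe sets of Ciita thus put oeLNC lowest in both cases, but did not agree on oeNC against kdNC (-0.47 and 0.02).

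The RFX complex binds the X box through 3 subunits. Rfx5, which binds DNA, had 291 in oeLNC, 266 in oeNC, 266 in kdLNC and 256 in kdNC, and no difference over 0.13. Rfxap had 228 in oeLNC, 245 in oeNC, 119 in kdLNC and 171 in kdNC, so it was higher on the overexpression-vector arrays, with 0.94 between oeLNC and kdLNC and -0.53 in the knockdown pair. A dim second probe set of Rfxap, below the filter on every array, gave -1.16 and -0.31, and the direction between oeLNC and kdLNC turned when the probe sets were averaged. Rfxank had 78.7 in oeLNC, 107 in oeNC, 63.9 in kdLNC and 68.2 in kdNC. Its overexpression difference was -0.45 there and 0.25 and 0.64 at its other probe sets, so the gene had no settled direction.

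By the medians, class I genes differed less than class II genes between vectors, but not gene by gene. Between the controls Tapbpl had -1.02 and Tap2 -0.59, while B2m, H2-D1 and Tap1 lay between -0.02 and 0.02. The class I median was -0.32 between the control arrays, where 9 of 10 were lower in oeNC. That count was 7 of 10 after median centring, 10 of 10 after quantile normalization and 6 of 10 with the mean of all probe sets. Of 13 other probe sets of class I genes above the filter 3 were lower in oeNC and 10 were higher, so the direction between the controls rests on the brightest probe sets. The median was -0.07 between the lncRNA arrays, where 6 of 10 were lower in oeLNC, with 5 of 10 after quantile or loess normalization and 7 of 10 after median centring. Both overexpression-vector arrays lay below both shRNA-vector arrays for 5 of 10 genes, and above them for 1 (26.7% of all genes). B2m, the light chain of class I, had 8175 in oeLNC, 8108 in oeNC, 7926 in kdLNC and 7992 in kdNC. H2-K1, a classical heavy chain, had 7700 in oeLNC, 6836 in oeNC, 7211 in kdLNC and 7775 in kdNC. H2-D1, the other classical heavy chain measured, had 8126 in oeLNC, 7176 in oeNC, 6968 in kdLNC and 7299 in kdNC. At these probe sets the log2 differences of the 3 genes stayed between -0.19 and 0.22 in every comparison. Other probe sets differed more, with 0.35 in the knockdown pair and 0.34 between the controls for a second one of B2m, and 0.67 and 0.92 for one of H2-D1. They lay at the 99.9th percentile of genes and not far below the brightest probe sets, where small differences may not be resolved, and the probe sets of H2-K1 and H2-D1 are of a kind that can match several class I genes.

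H2-M3, which presents formylated peptides, had 1091 in oeLNC, 1100.2 in oeNC, 1093 in kdLNC and 1297 in kdNC, with kdNC the high array. The transporter subunits that carry peptides into the endoplasmic reticulum did not share an order. Tap1 had 1058 in oeLNC, 968 in oeNC, 1012 in kdLNC and 984 in kdNC, nearly level, while Tap2 had 163 in oeLNC, 137 in oeNC, 220.4 in kdLNC and 205 in kdNC. Nlrc5, the class I transactivator, had 1031 in oeLNC, 837 in oeNC, 1131 in kdLNC and 1164 in kdNC, so oeNC was the low array.

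The peptide editors and the trimming enzyme had oeNC lowest at their brightest probe sets. Tapbp, or tapasin, which holds class I at the transporter, had 2065 in oeLNC, 1676 in oeNC, 2466 in kdLNC and 2211 in kdNC. Tapbpl, a second peptide editor, had 205 in oeLNC, 137 in oeNC, 281 in kdLNC and 277 in kdNC. Erap1, which trims peptides, had 137 in oeLNC, 115 in oeNC, 184 in kdLNC and 160.2 in kdNC. Tapbpl fell 2.02-fold in oeNC against kdNC (-1.02), and was the 1 gene of the list past 2-fold between the controls, where 7.03% of 11723 genes were. It did not pass 2-fold after median centring, quantile or loess normalization (-0.98, -0.96 and -0.95), and its second probe set gave -1.09. Second probe sets of the others had another order, with 96.9 in oeLNC, 117 in oeNC, 95.3 in kdLNC and 99.7 in kdNC for Tapbp, and 40.5 in oeLNC, 42.0 in oeNC, 99.0 in kdLNC and 63.5 in kdNC for Erap1.

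Within the overexpression pair the class I median was 0.21, and 9 of 10 genes were higher in oeLNC, where 47.8% of all genes were higher. After median centring 8 of 10 were higher, and after quantile normalization 10 of 10. Tapbpl had the widest difference, at 0.58, and Tapbp and Nlrc5 had 0.30 each. Other probe sets of these genes gave another count, since 5 of 13 above the filter, from 6 genes, were higher in oeLNC and 8 were lower. In the knockdown pair the class I median was 0.01, with 5 of 10 lower in kdLNC and differences from -0.25 for H2-M3 to 0.20 for Erap1.

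**Figure D2:**
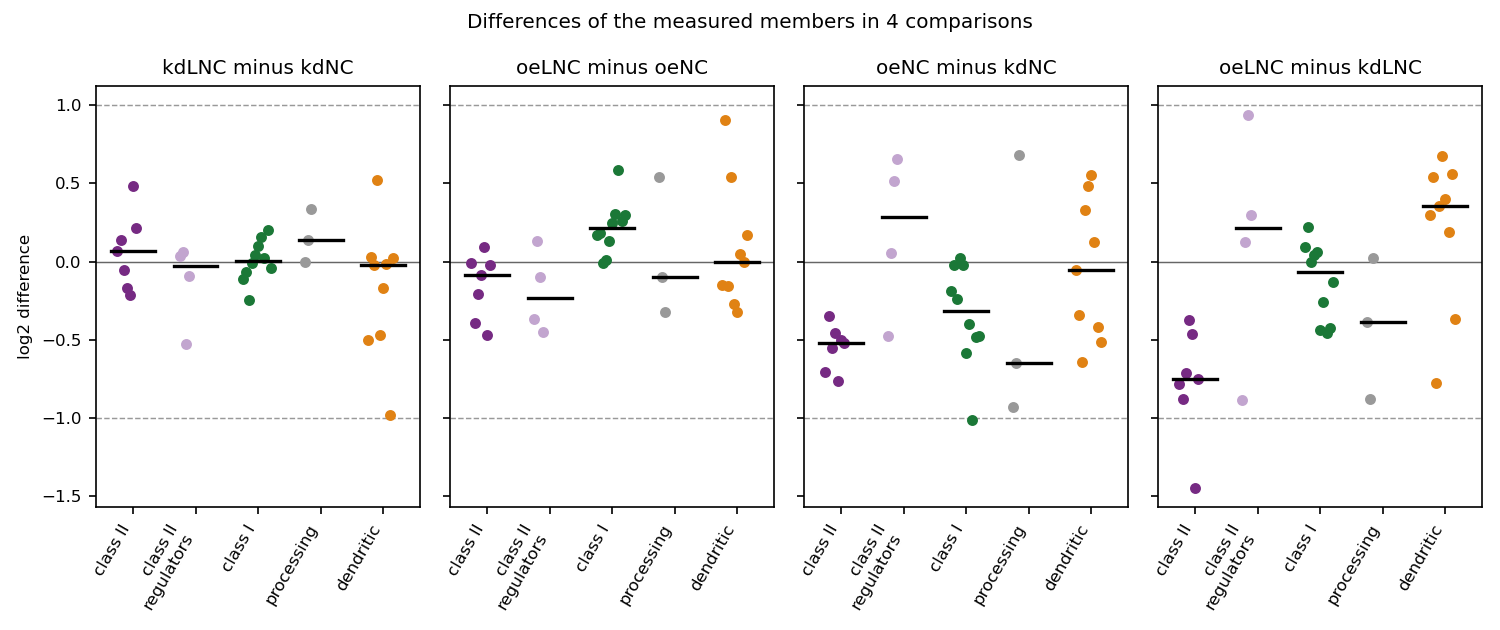
Log2 difference of each measured gene (points) and the median of its group (black bars) in the 4 comparisons (panels), with dashed lines at 2-fold. Class II genes lie between -0.21 and 0.48 in kdLNC minus kdNC and all below 0 in oeNC minus kdNC and in oeLNC minus kdLNC, while class I genes stay between -0.46 and 0.22 in the last panel.

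The class II median minus the class I median was -0.69 between the lncRNA arrays and -0.20 between the controls. It was -0.30 inside the overexpression pair and 0.06 inside the knockdown pair. Over 8 settings of the processing it ran from -0.69 to -0.46 between the lncRNA arrays, and over 9 settings from -0.43 to -0.18 in the overexpression pair. In the knockdown pair it ran from -0.15 to 0.19, so it had no settled sign. The genes for both classes lie side by side in the major histocompatibility complex on chromosome 17, and Tap1 and Tap2 stand among class II genes there. Along that order (oeLNC minus kdLNC), the class I side was at 0.30 for Psmb9, 0.06 for Tap1, -0.18 for Psmb8 and -0.44 for Tap2, between H2-DMb2 at -0.99 and H2-Ob at -1.45. Past H2-Eb1 the class II genes H2-Eb2 and H2-Ea were at -0.14 and 0.32, and H2-D1 was at 0.22. Other probe sets of H2-Ea lay below the filter on every array, at intensities of at most 6.61, so its value rests on the brightest. Whether that signal is H2-Ea RNA was not tested. Psmb9, H2-Eb2 and H2-Ea are named here for their place in the order, after their values were seen.

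**Figure D3:**
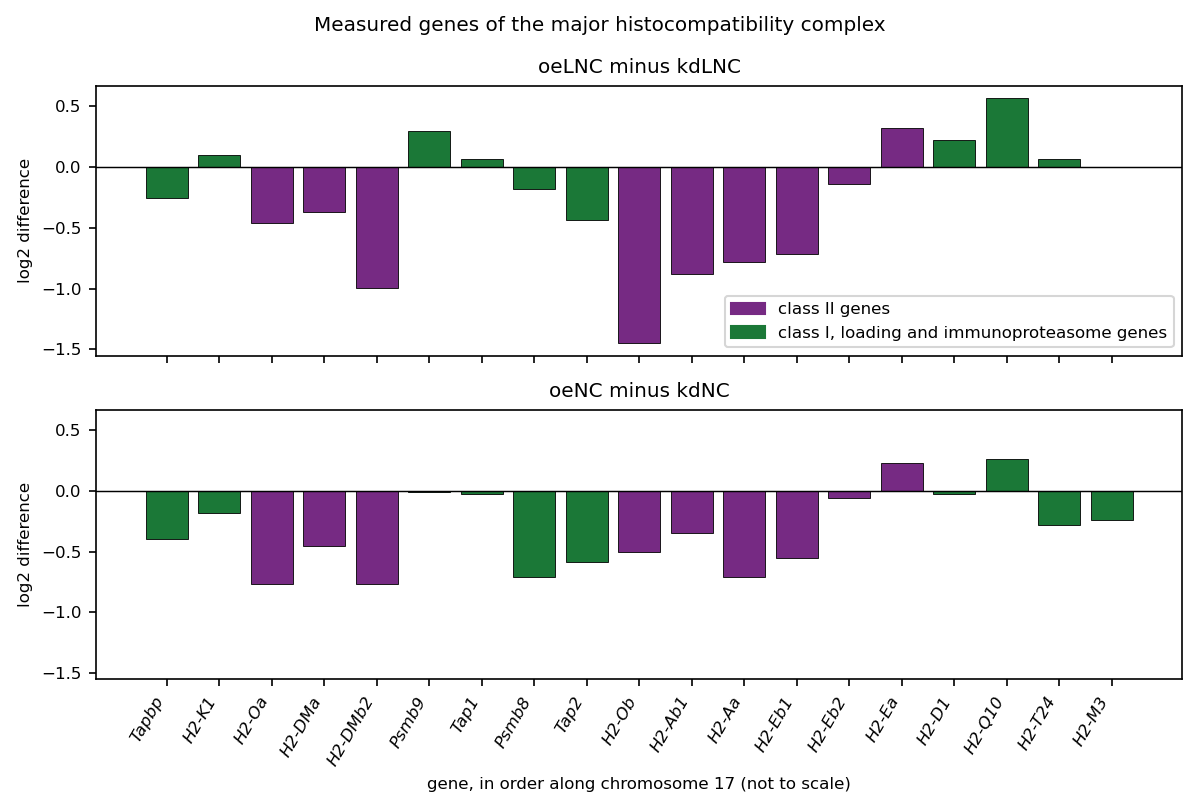
Log2 difference (bars) for measured genes of the major histocompatibility complex, in their order along chromosome 17 and not to scale, for oeLNC minus kdLNC above and oeNC minus kdNC below, with class II genes in purple and class I, loading and immunoproteasome genes in green. In the upper panel the bars from H2-Ob to H2-Eb1 run from -1.45 to -0.72, and Tap2 beside them is at -0.44. H2-K1 and H2-D1 stand at 0.09 and 0.22. The class II gene H2-Ea is at 0.32 in its brightest probe set, while its others were below the filter.

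Other probe sets of the class II genes read the same RNA on the same arrays, so they do not stand as independent support. Of 6 above the filter, from H2-Aa, H2-Ab1 and H2-DMa, 6 were lower in oeLNC than in oeNC and 6 were lower in oeLNC than in kdLNC. Some differences from oeNC were small, at -0.04 for a probe set of H2-Aa and -0.06 for a dim one of H2-DMa. A share over all probe sets was not computed. Between the control arrays 4 of the 6 were lower in oeNC, and in the knockdown pair 5 of the 6 were higher in kdLNC. A dim probe set of H2-Aa had 27.4 in oeLNC, 34.5 in oeNC, 82.5 in kdLNC and 27.6 in kdNC, a knockdown difference of 1.58 where the brightest had 0.07. Its high value was thus on 1 array. The 33 measured genes had 68 probe sets in all, and 16 of these genes had more than 1.

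**Figure D4:**
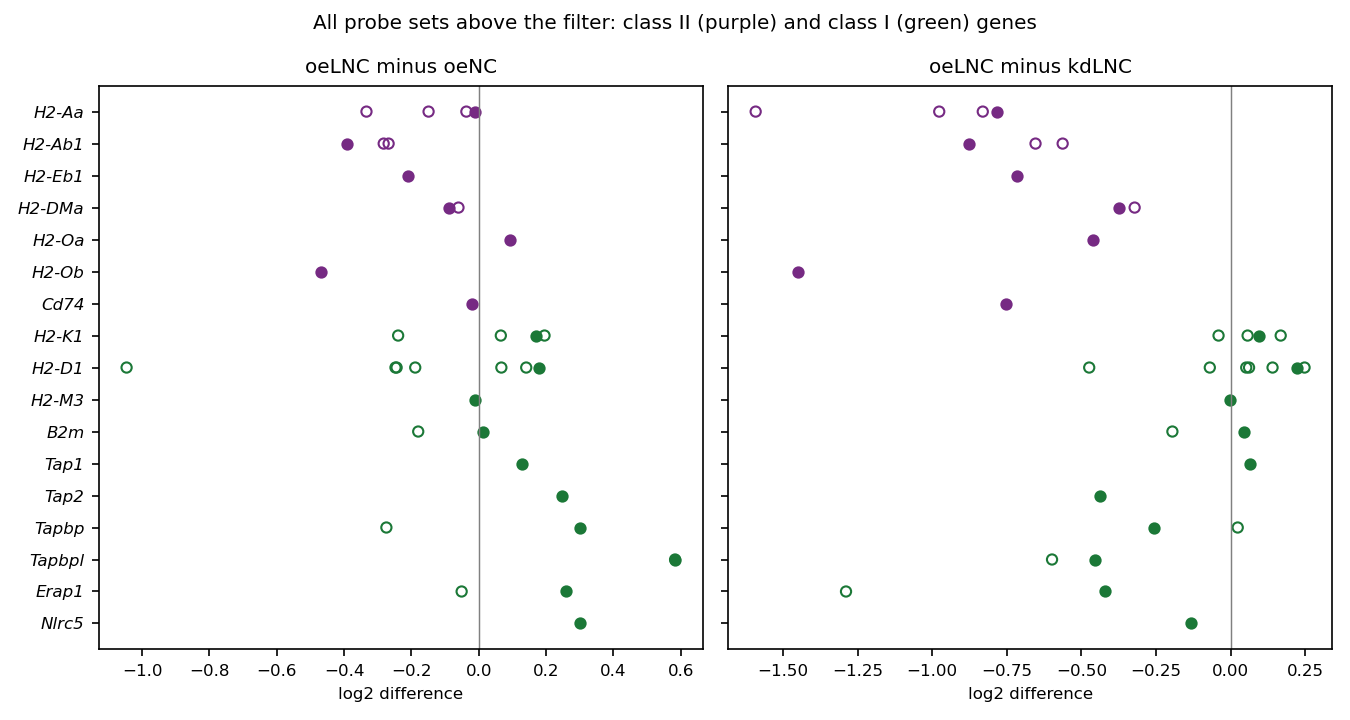
Log2 differences of all probe sets above the filter (points) for the class II genes in purple and the class I genes in green, with the brightest probe set of a gene filled, for oeLNC minus oeNC on the left and oeLNC minus kdLNC on the right. All class II points lie below 0 on the right, from -1.59 to -0.32, and class I points fall on both sides of 0 in both panels.

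Genes that prepare antigens in endosomes and present lipids had no common order. Ifi30, a lysosomal enzyme that opens disulfide bonds of antigens, had 477 in oeLNC, 511 in oeNC, 879.8 in kdLNC and 801 in kdNC, the same order of arrays as class II. Lgmn, an asparagine-cutting protease that acts on the invariant chain and on antigens, had 499 in oeLNC, 623 in oeNC, 490.1 in kdLNC and 389 in kdNC, highest in oeNC and lowest in kdNC. Its differences were 0.33 in the knockdown pair and -0.32 in the overexpression pair. Cd1d1, which presents lipids to natural killer T cells, had 62.8 in oeLNC, 43.1 in oeNC, 82.0 in kdLNC and 82.1 in kdNC. It differed by 0.54 in the overexpression pair and by 0.00 in the knockdown pair, and a second probe set gave 0.19 and -0.04.

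Among the dendritic cell genes, several that define the classical lineage lay low on every array, and the 6 above the filter had no common order. Zbtb46, a transcription factor of classical dendritic cells, Xcr1, a chemokine receptor of the cross-presenting subset, and Cd209a, a lectin, stayed below the filter with intensities of at most 18.6, 6.20 and 16.0. Differences of such dim probe sets, Zbtb46 at 0.91 in the overexpression pair among them, are given without a count. Batf3, a factor that the cross-presenting subset needs, had 21.0 in oeLNC, 23.4 in oeNC, 35.9 in kdLNC and 36.4 in kdNC, not far above the filter. Flt3, the receptor for the cytokine that drives dendritic cell growth, had 37.2 in oeLNC, 41.4 in oeNC, 30.3 in kdLNC and 42.9 in kdNC, so kdLNC was low. Its knockdown difference was -0.50, close to the SD of 0.48 at its level between the control arrays, which differ in vector.

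Ccr7, the receptor that leads dendritic cells to lymph nodes, had 265 in oeLNC, 321 in oeNC, 166 in kdLNC and 230.3 in kdNC. Cd83, a surface protein of mature dendritic cells, had 758 in oeLNC, 949.5 in oeNC, 574 in kdLNC and 647 in kdNC. Both were higher on the overexpression-vector arrays, opposite to class II, and both were lower with the RNA silenced (-0.47 and -0.17) and with it overexpressed (-0.27 and -0.32). Cd40, the costimulatory receptor that T cells engage, had 200.3 in oeLNC, 178 in oeNC, 258 in kdLNC and 254 in kdNC, on the side of class II. Its 2 other probe sets had the same order of vectors. Between the lncRNA arrays Ccr7 had 0.67, Cd83 0.40 and Cd40 -0.37.

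Siglech, a lectin of plasmacytoid dendritic cells, had 41.0 in oeLNC, 41.1 in oeNC, 27.8 in kdLNC and 54.9 in kdNC. At -0.98 in the knockdown pair it was just short of 2-fold and was the 1 gene of the list that differed by at least 1.5-fold there, where 4.33% of all genes did. The other markers listed for plasmacytoid dendritic cells had -1.06 for Ccr9, -0.72 for Bst2, -0.30 for Ly6d and -0.06 for Tcf4. Lower in kdLNC were thus 5 of 5, Siglech included, where 58.7% of all genes were, but 3 other probe sets of Tcf4 had 0.92, 0.27 and 0.11. The summed intensity of the 5 genes was 3082 in kdLNC against 4179.85 in kdNC, and 2125 in oeLNC against 2039 in oeNC. None of the 5 was at or below the filter on all arrays. Their part in the other results was not tested.

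**Figure D5:**
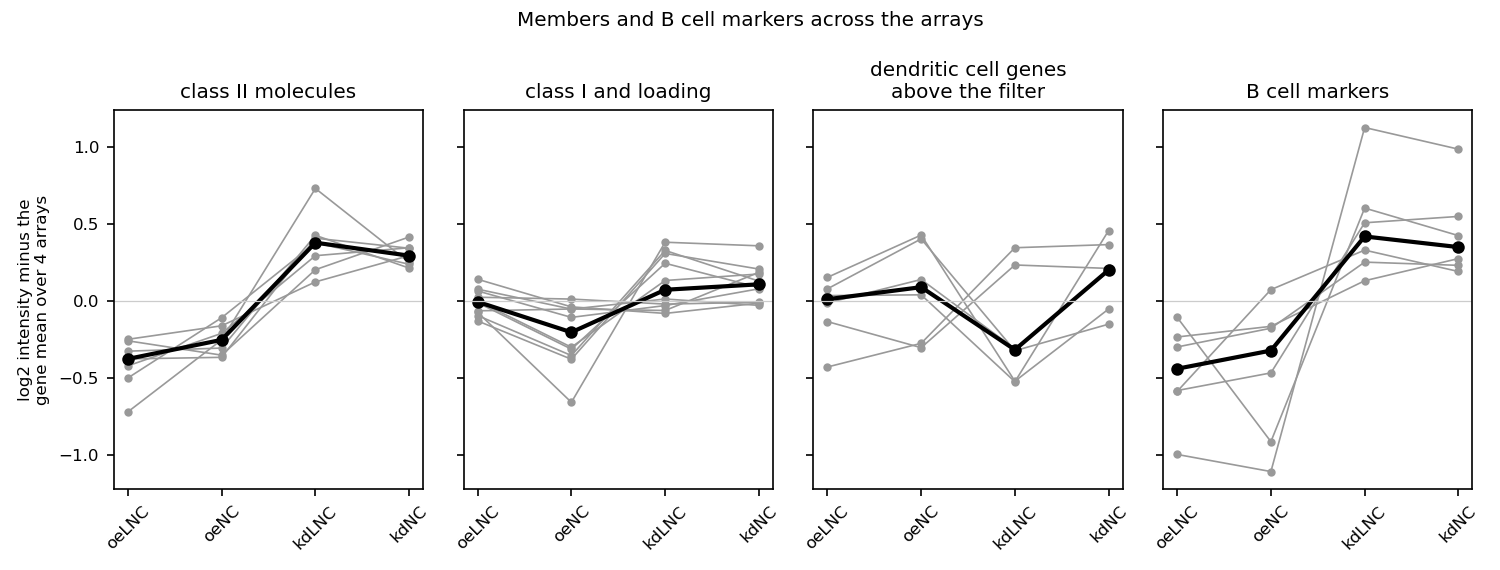
Log2 intensity of each gene minus its own mean over the 4 arrays (grey lines) and the median of the group (black) for class II molecules, class I genes, dendritic cell genes above the filter and B cell markers, in the order oeLNC, oeNC, kdLNC and kdNC. The class II and B cell panels have every gene lower on both overexpression-vector arrays than on both shRNA-vector arrays, and the dendritic cell panel has 2 genes that way and 2 the other way.

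Markers of B cells had the same order of arrays as class II. Of 7 listed, 6 were measured, and 6 of 6 were lower on both overexpression-vector arrays than on both shRNA-vector arrays, where 30.8% of 12092 genes were. Some other probe sets had another order, with 0.34 and 0.30 for 2 of Ebf1 between the controls, and 0.23 between the controls and 0.37 between the lncRNA arrays for a dim one of Pax5. The summed intensity of the 6 genes was 1672 in oeLNC, 1802 in oeNC, 3447 in kdLNC and 3301 in kdNC, while that of the class II genes was 3019, 3259, 5152 and 4868 on the same arrays. None of the 6 was at or below the filter on all arrays. Ms4a1, or CD20, had 318 in oeLNC, 294 in oeNC, 1384 in kdLNC and 1256 in kdNC. Cd79a, a chain of the B cell receptor complex, had 81.0 in oeLNC, 87.7 in oeNC, 172 in kdLNC and 177 in kdNC. The B cell median was -0.73 between the control arrays and -0.81 between the lncRNA arrays, and -0.09 and 0.08 inside the overexpression and the knockdown pair. The part of B cells in the class II result was not tested. The summed markers of plasmacytoid dendritic cells had that order too, mostly through Ly6d, with 953 in oeLNC, 729 in oeNC, 1971 in kdLNC and 2428 in kdNC. Ccr9 had that order as well, but Siglech, Bst2 and Tcf4 did not, so the order was not one of the list as a whole. The sums of the other lists did not, with 6176 in oeLNC, 5896 in oeNC, 5071 in kdLNC and 5476 in kdNC for monocytes and macrophages. MDSC and neutrophil markers, of which S100a8 and S100a9 made up most of the intensity, summed to 30440.3 in oeLNC, 33939 in oeNC, 26091 in kdLNC and 28651 in kdNC, and T cell markers to 146, 122, 121 and 132 on the same arrays.

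Further genes of these pathways, from lists of their own, gave the following counts. Of 18 class I pathway genes 11 were measured, with medians of -0.05 in the knockdown pair, 0.12 in the overexpression pair, -0.12 between the controls and -0.18 between the lncRNA arrays. The immunoproteasome subunits Psmb8 and Psmb10, which cut peptides suited to class I, had 0.47 and 0.51 in the overexpression pair and -0.71 and -1.04 between the controls, but a dimmer probe set of Psmb8 had -0.69 in the overexpression pair. In the knockdown pair Canx, a chaperone of class I heavy chains, had 0.46, and H2-Q10, a class I gene, had -0.39. Psmb10, which fell in oeNC against kdNC, was the 1 gene of the 11 past 2-fold in any comparison.

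Of 13 further class II pathway genes 13 were measured, and none passed 2-fold in any comparison, with medians of 0.10 in the knockdown pair, -0.05 in the overexpression pair, 0.00 between the controls and -0.20 between the lncRNA arrays. The group thus did not share the shift of the class II molecules, but H2-DMb2, the other β chain gene of H2-M, did, with 228 in oeLNC, 217 in oeNC, 454 in kdLNC and 371 in kdNC. Cst3, an inhibitor of cathepsins, had -0.41 in the knockdown pair, and Ctsl, a cathepsin, had -0.40 in the overexpression pair. Nfyb, a subunit of the factor that binds the Y box, had -0.31 in the overexpression pair and 0.00 in the knockdown pair.

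Of 22 further genes of dendritic cells and costimulation, 18 were above the filter. Id2, a regulator of dendritic cell development, rose in kdLNC against kdNC (1.07), with 428 in oeLNC, 763 in oeNC, 1053 in kdLNC and 501 in kdNC, and had -0.83 in the overexpression pair. It was the 1 gene of the 18 past 2-fold in either of these pairs. Another probe set of Id2 had -0.13 in both, and a dimmer one had 0.51 in the knockdown pair and -0.44 in the overexpression pair. Irf8, a transcription factor of dendritic cells and monocytes, had 0.00 in the knockdown pair and -0.59 in the overexpression pair, where a second probe set had -0.03. Fscn1, an actin-bundling protein of mature dendritic cells, had -0.43 and -0.57 in the same pairs, and -0.27 and 0.05 at another probe set. Il12a, a subunit of interleukin 12, rose in oeNC against kdNC (1.48) and in oeLNC against kdLNC (1.18), with 1302 in oeLNC, 1871 in oeNC, 573 in kdLNC and 669.6 in kdNC.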

How the data were processed

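RNA of 4 cultures was hybridised to Affymetrix mouse genome arrays, with 1 array each for oeLNC, oeNC, kdLNC and kdNC, grouped by the submitters' labels. The authors deposited intensity values on a linear scale for 45101 probe sets, and the submitters' processing notes name RMA, with no version or settings given in the sources used here. Python 3.11.15 was used with numpy 2.4.6, pandas 2.3.3, matplotlib 3.10.9 and statsmodels 0.14.6 to take log2 values and their differences. In the platform annotation 34958 probe sets carry 1 symbol and were used, while 932 with several symbols and 9211 without a symbol were not. There were 0 unmapped columns.

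The genes, lists, motifs and tests were chosen with earlier results of these data known. Every measured member could be named, and up to 4 genes of each pathway list with the largest difference in the knockdown or overexpression pair. Genes above the 50th percentile on at least 1 array of a comparison were counted. The methods' limma test could not be fitted with 1 array per group, so a 2-fold threshold was used without p-values, and a gene was set beside the SD of oeNC minus kdNC among the 500 genes of most similar level, in which vector, culture and array cannot be told apart. The alternatives were median centring, quantile and loess (span 0.3) normalization, the mean of all probe sets, leaving out probe sets that can match several transcripts, no filter, a 70th percentile filter, thresholds of 1.5 and 3, and the mean of both controls. The calculation was tested on simulated data. Promoters came from RefSeq (GRCm38.p6).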

Additional observations from a re-analysis of the deposited data

How the results depend on the processing

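With 1 array per group no value has a replicate error, and the missing background signal leaves dim probe sets without a lower limit. Leaving out a replicate was not possible, and no paired analysis was possible because no group has more than 1 array. Class II genes were lower in 7 of 7 under every alternative in oeNC against kdNC and in oeLNC against kdLNC, or in 4 of 4 where probe sets open to several transcripts were left out. With the mean of both controls, the class II median was 0.31 in kdLNC (0.07 against kdNC alone) and -0.36 in oeLNC (-0.09 against oeNC alone). The difference between the control arrays enters both of these values, so they are not differences within a vector.

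The count of genes past 2-fold in the list moved as follows. At a threshold of 1.5 it was 1 in the knockdown pair, 9 between the controls and 10 between the lncRNA arrays, and at 3 it was 0 in both comparisons between vectors, where the reported counts were 1. Between the controls it was 0 after median centring, quantile or loess normalization. Between the lncRNA arrays it was 2 after quantile or loess normalization, 3 with the mean of all probe sets and 2 when probe sets open to several transcripts were left out. In the overexpression pair that last setting gave 1, Ciita. Rfxap between oeLNC and kdLNC reversed to -0.11 with the mean of all probe sets, against 0.94. The causes were not tested beyond what each setting leaves out.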
